A study of Mus musculus with 10 samples.

Results

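The mitochondrial biogenesis regulators described here are 10 genes, taken by symbol from the count table: Ppargc1a, Ppargc1b, Nrf1, Gabpa, Esrra, Tfam, Tfb1m, Tfb2m, Polrmt and Polg. They are 10 of the 24608 gene symbols in that table, and all 10 had at least 1 count in each genotype. The rule names the genes and uses no measured value, although they were proposed with earlier results of these data known. Transcripts were measured by CEL-Seq2, a 3′ end RNA-seq method that counts unique molecular identifiers (UMIs), in muscle stem cells (MuSCs, the Pax7-expressing satellite cells of skeletal muscle) isolated from mouse muscle 3 days after injury with cardiotoxin (CTX). The comparison was between 5 control libraries (Trpm7+/+) and 5 Trpm7 cKO libraries (Trpm7 flox/flox), each made from 3000 sorted YFP-positive cells. Trpm7 encodes a plasma membrane channel that carries magnesium ions and is fused to a kinase. Both genotypes carried Pax7 CreERT2/+ and a Rosa26 YFP reporter on a C57BL6 background, were adults of 7 to 20 weeks, and received 5 daily injections of tamoxifen (TMX), so Cre and tamoxifen were shared by the groups. Recombination was driven from the Pax7 locus and is therefore limited to cells that expressed Pax7, and YFP marks cells with past Cre activity. The names of Trpm7 cKO libraries 4 and 5 share a number whose meaning is not given, so whether they came from separate animals is not known and p-values may partly measure technical spread.

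Mitochondrial biogenesis needs products of the nuclear and the mitochondrial genomes together. In textbook outline, the coactivators encoded by Ppargc1a and Ppargc1b bind the transcription factors NRF1, GABPA and ERRα (Esrra), which switch on nuclear genes of the respiratory chain and of mitochondrial DNA (mtDNA) upkeep. Among their targets are TFAM, which packages mtDNA and opens its promoters, TFB1M and TFB2M, POLRMT, the mitochondrial RNA polymerase, and POLG, the mtDNA polymerase. MuSCs hold few mitochondria at rest and gain more as they activate, divide and differentiate after injury.

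Because NRF1, GABPA and ERRα are themselves encoded by members, the starts of the members were read for the letters these factors are known to bind. RefSeq promoter windows (GRCm38.p6, 250 bases before to 50 bases after a start) were held for 9 of the 10 genes, in 10 windows. An NRF1 motif, GCGCNTGCG on either strand, was found in 3 of the 10 windows, against 6.31% of all 32851 windows. The ETS motif that GABPA binds, CCGGAAGT on either strand, was found in 2 of 10 windows, against 3.89% of all windows, and the ERR motif CAAGGTCA in 0 of 10, against 1.56%. No member held matches to more than 1 of these motifs, and a match is a description of letters and not evidence of binding. The 30 bases around each match are shown for the 5 members that held one, 5′ to 3′ on the gene's strand, which is the minus strand for all 5, with the matching letters in capitals.
Esrra, chr19:6921884-6921913, NRF1 motif: cctccgggtaCGCAGGCGCcgccgcctccc
Tfb2m, chr1:179546245-179546274, NRF1 motif: ctaggtcgttCGCATGCGCcattcgtaatg
Polrmt, chr10:79746565-79746594, 2 overlapping NRF1 motif matches: gcaggcgGCGCGTGCGCGTGCGcactgcgg
Tfam, chr10:71238073-71238102, ETS motif: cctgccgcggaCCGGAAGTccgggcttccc
Polg, chr7:79466293-79466322, ETS motif: gaggacctcacCCGGAAGTccctctgcacc

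Library depth differed by genotype. Control libraries held 914361 to 1097709 UMI counts (median 995138) and Trpm7 cKO libraries 205986 to 581121 (median 524959), and every Trpm7 cKO library was below every control library. Levels are given as normalized CPM, that is counts as a share of the library's counts on tested genes, adjusted by a TMM scaling factor, and are per molecule, since 3′ UMI counts do not grow with transcript length. The edgeR quasi-likelihood test was run on the 7753 genes that passed the low-count filter, with Benjamini-Hochberg adjustment over all of them. Log2 fold changes (log2FC) are Trpm7 cKO minus control, a gene was called at an adjusted p below 0.05, and the study's own stricter rule also asks for an absolute log2FC above 1.5. Trpm7 itself did not pass the test (log2FC -0.09, SE 0.20, adjusted p = 0.723), but 3′ end counts read only the end of a transcript and do not show whether an exon elsewhere in it was removed.

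Of the 10 regulators, 5 passed the low-count filter. Tfam, Ppargc1b and Gabpa were lower in Trpm7 cKO MuSCs, Nrf1 and Polg were not called, and no regulator was called higher. Across all tested genes 48.7% were called, 24.1% lower and 24.6% higher, so calls were common in this comparison and 3 lower calls among 5 tested members are read against that background. Past both thresholds were 0 of the 5, against 12.0% of all tested genes. The median log2FC of all tested genes was -0.01. In bulk libraries, fewer cells of a type and less RNA per cell cannot be told apart.

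**Figure D1:**
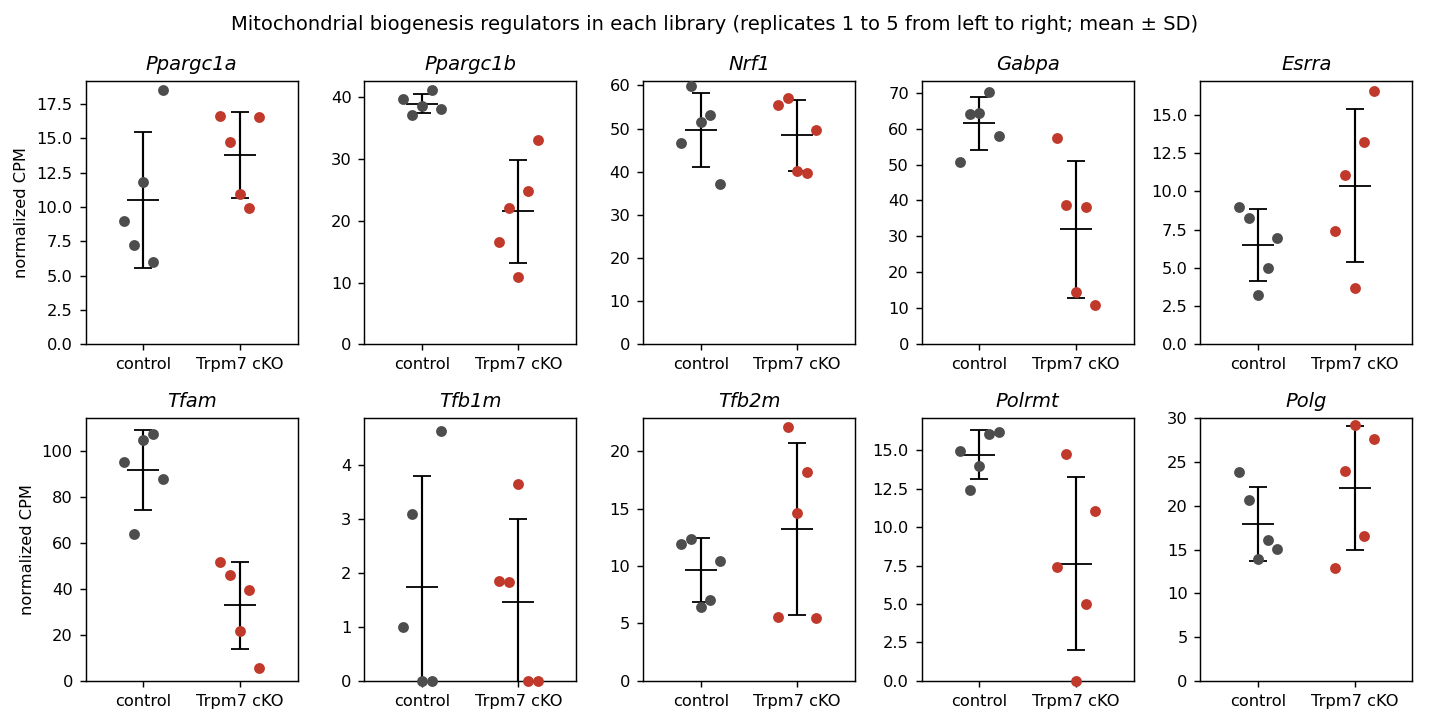
Normalized CPM (y axis, linear, own scale in each panel) of the 10 regulators in each of the 5 control and 5 Trpm7 cKO libraries, one point per library, with the mean and SD as black bars. All 5 control points lie above all 5 Trpm7 cKO points for Tfam and Ppargc1b, whereas the points of the other regulators overlap.

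Among the coactivators, Ppargc1b was lower in Trpm7 cKO MuSCs and Ppargc1a was too scarce to be tested in the filtered table. Ppargc1b (chr18:61298136-61400431, minus strand, GRCm38) encodes a coactivator of nuclear receptors that drives oxidative metabolism and can act in place of its paralog. Its UMI counts were 40, 36, 36, 41 and 33 in control libraries 1 to 5 and 9, 12, 3, 15 and 6 in Trpm7 cKO libraries 1 to 5. In normalized CPM this was 39.8, 37.2, 38.6, 41.2 and 38.2 in control and 16.6, 22.1, 10.96, 24.9 and 33.1 in Trpm7 cKO. Every control library was above every Trpm7 cKO library, the controls lay close together, and Trpm7 cKO library 5 came nearest to them; among all tested genes, 17.9% had all control libraries above all Trpm7 cKO libraries. The mean fell from 39.0 ± 1.53 to 21.5 ± 8.38 CPM (SD, n = 5), and the fitted level was 1.85-fold lower (log2FC -0.89, SE 0.24, 95% interval -1.38 to -0.39, adjusted p = 0.00426).

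Ppargc1a (chr5:51454250-51567726, minus strand), the inducible coactivator best known from exercise and cold, was a low-count gene. Its counts were 9, 7, 11, 6 and 16 in control and 9, 8, 3, 6 and 3 in Trpm7 cKO, that is 10.5 ± 4.98 and 13.8 ± 3.14 CPM (SD, n = 5). The libraries of both genotypes overlapped. Only 1 control and 3 Trpm7 cKO libraries exceeded the filter's level of 13.4 CPM, and a gene needed 5 such libraries to be tested. In a fit without the filter, scaled as in the filtered table, 26.0% of 21914 genes were called and Ppargc1a was not (log2FC 0.38, SE 0.41, 95% interval -0.42 to 1.19, adjusted p = 0.522). That interval spans both a rise and a fall, and the median log2FC of all genes in this fit was 0.36, against which its estimate and those of the other members below the filter are to be read.

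Of the nuclear transcription factors, Gabpa was lower and Nrf1 did not pass the test. GABPA (chr16:84834925-84863779, plus strand) is the DNA-binding subunit of an ETS family factor that acts on respiratory chain genes and on Tfam. Gabpa counts were 51, 62, 60, 70 and 50 in control and 31, 21, 4, 23 and 2 in Trpm7 cKO. The normalized CPM were 50.7, 64.0, 64.3, 70.3 and 57.9 in control and 57.3, 38.6, 14.6, 38.1 and 11.04 in Trpm7 cKO. Trpm7 cKO library 1 lay within the control range, libraries 2 and 4 were below it, and libraries 3 and 5, which had the fewest counts in all (292065 and 205986), were lowest. The mean was 61.4 ± 7.43 CPM in control and 31.9 ± 19.1 CPM in Trpm7 cKO (SD, n = 5), 1.68-fold lower by the fit (log2FC -0.75, SE 0.25, 95% interval -1.28 to -0.22, adjusted p = 0.0188). Without Trpm7 cKO library 3 the adjusted p was 0.0514 (log2FC -0.61), and without libraries 3 and 5, a choice made after the values were seen, it was 0.0915 (log2FC -0.46).

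Nrf1 (chr6:30047988-30153458, plus strand) encodes the factor named for nuclear respiratory genes. Its counts were 47, 58, 48, 53 and 32 in control and 30, 31, 11, 24 and 9 in Trpm7 cKO. Scaled to depth, the CPM were 46.7, 59.9, 51.5, 53.2 and 37.0 in control and 55.4, 57.0, 40.2, 39.8 and 49.7 in Trpm7 cKO. The 5 Trpm7 cKO libraries all lay inside the control range. The means were 49.7 ± 8.49 and 48.4 ± 8.18 CPM (SD, n = 5; log2FC -0.03, SE 0.20, adjusted p = 0.924), and the 95% interval of the log2FC, -0.44 to 0.38, bounds the difference more tightly than for any other tested member.

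Esrra (chr19:6910977-6921813, minus strand) encodes an orphan nuclear receptor that works with both coactivators on oxidative genes. It had 3 to 9 counts in control and 1 to 8 in Trpm7 cKO libraries, with means of 6.48 ± 2.36 and 10.4 ± 5.03 CPM (SD, n = 5), and the libraries overlapped. It was below the filter, and without the filter it was not called (log2FC 0.64, SE 0.48, 95% interval -0.31 to 1.59, adjusted p = 0.332). Its 3′ end faces Trmt112 on the opposite strand, and the strand setting of the counting is not given, so part of these counts may belong to that gene.

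The group that acts on mtDNA transcription held the largest difference among the tested members. Tfam (chr10:71225464-71238280, minus strand), the packaging protein of mtDNA and an activator of its promoters, was the most abundant of the 10 regulators in control MuSCs. Tfam counts were 96, 62, 98, 107 and 76 in control and 28, 25, 6, 24 and 1 in Trpm7 cKO. The normalized CPM were 95.5, 64.0, 105, 107 and 88.0 in control and 51.7, 46.0, 21.9, 39.8 and 5.52 in Trpm7 cKO. All control libraries were above all Trpm7 cKO libraries, and Trpm7 cKO libraries 3 and 5 were again lowest, the value of library 5 resting on 1 count. The mean fell from 92.0 ± 17.5 to 32.99 ± 19.0 CPM (SD, n = 5), and the fitted level was 2.43-fold lower (log2FC -1.28, SE 0.25, 95% interval -1.81 to -0.75, adjusted p = 0.000340). Leaving out each library in turn gave log2FC values of -1.47 to -1.14, and the call held each time. Some 1.77% of 31-base words in the last 500 bases of Tfam transcripts also occur in other genes' transcripts.

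Polrmt (chr10:79736123-79746581, minus strand), the single-subunit RNA polymerase that also primes mtDNA replication, was below the filter. Its counts were 15, 12, 13, 16 and 14 in control and 4, 8, 0, 3 and 2 in Trpm7 cKO. The control values were close together and Trpm7 cKO library 2, at 14.7 CPM, reached into their range, while the count of 0 in library 3 allows up to 3 counts. Means were 14.7 ± 1.59 and 7.62 ± 5.64 CPM (SD, n = 5). In the fit without the filter, with the scaling of the filtered table, the log2FC was -0.88 (SE 0.43, 95% interval -1.73 to -0.04, unadjusted p = 0.0412 by edgeR's quasi-likelihood test) and it did not pass after adjustment (adjusted p = 0.121). When the factors were estimated on the unfiltered table, where 25.2% of 21914 genes were called, it just passed (log2FC -1.07, adjusted p = 0.0491).

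Tfb2m and Tfb1m were scarce in both genotypes. TFB2M melts the mitochondrial promoter together with POLRMT, and Tfb2m (chr1:179528055-179546267, minus strand) had 6 to 12 counts in control and 1 to 12 in Trpm7 cKO libraries, with means of 9.64 ± 2.76 and 13.2 ± 7.48 CPM (SD, n = 5). The libraries overlapped, and without the filter the gene was not called (log2FC 0.55, SE 0.41, 95% interval -0.25 to 1.35, adjusted p = 0.318). TFB1M is the methyltransferase of the small mitochondrial ribosomal RNA. Tfb1m (chr17:3519256-3557781, minus strand) had 1, 3, 0, 0 and 4 counts in control and 1, 1, 1, 0 and 0 in Trpm7 cKO, so a difference was not detectable at this depth and no fold is given. Tiam2 lies on the opposite strand at this locus.

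Polg (chr7:79446231-79466362, minus strand), the catalytic subunit of the mtDNA polymerase, was the only member of the replication group and did not pass the test. Its counts were 24, 20, 13, 16 and 13 in control and 7, 13, 8, 10 and 5 in Trpm7 cKO, with means of 17.9 ± 4.19 and 22.0 ± 7.05 CPM (SD, n = 5). The libraries overlapped (log2FC 0.18, SE 0.29, 95% interval -0.42 to 0.79, adjusted p = 0.664).

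**Figure D2:**
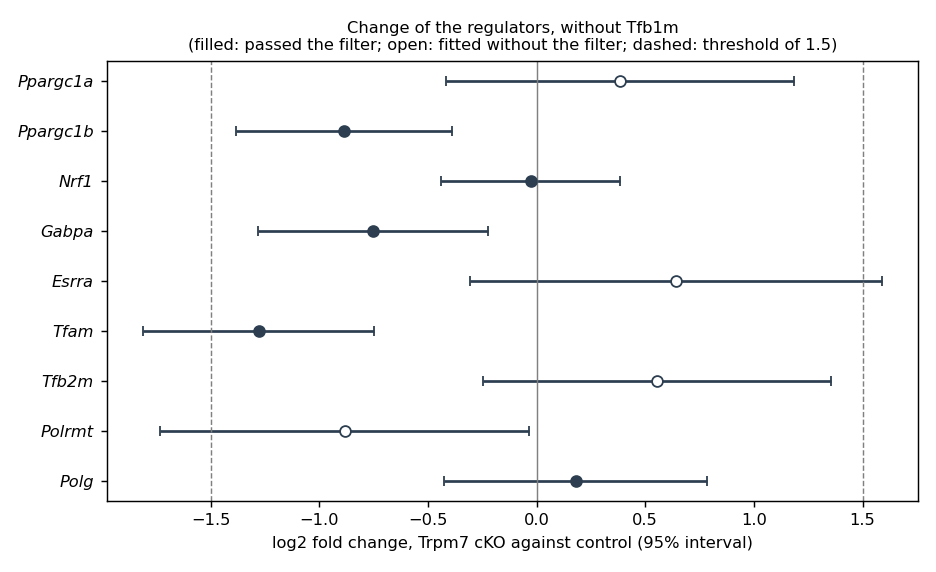
Log2FC (x axis, Trpm7 cKO minus control) of the regulators other than Tfb1m, with 95% intervals, filled points for the 5 members tested in the filtered table and open points for members from the fit without the filter. Tfam, Ppargc1b and Gabpa have intervals wholly below 0, the open point of Polrmt ends at -0.04, and the intervals of the other members include 0.

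The order of levels among the regulators differed between the genotypes. In control MuSCs, by mean CPM, it ran Tfam, Gabpa, Nrf1, Ppargc1b, Polg, Polrmt, Ppargc1a, Tfb2m, Esrra and Tfb1m. Neighbours in this order overlapped in their library ranges, with the exception of Ppargc1b and Polg. Within the control libraries, Tfam was above 90.4% of the 21914 symbols with a count by mean level and Tfb1m above 45.8%, so the set spans abundant to barely detected transcripts. In Trpm7 cKO MuSCs the order began with Nrf1, followed by Tfam, Gabpa, Polg and Ppargc1b, and Polrmt was at place 9. These orders were not tested.

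Ratios between members within a library do not depend on depth scaling, so they were used to ask whether the regulators changed unequally. This was added after the values were seen. Log2 ratios of counts, with 0.5 added to each count, were taken for all 28 pairs of the 8 members that had at least 1 count in every library, which left out Tfb1m and Polrmt. The added 0.5 pulls ratios of low counts toward 0, and counts were lower in the shallower Trpm7 cKO libraries. Each pair was tested by a two-sided exact permutation test over the 252 splits of 10 libraries, whose smallest possible p is 0.00794. After adjustment over the 28 pairs, 9 pairs had an adjusted p below 0.05, and 6 of them reached the smallest p (adjusted p = 0.0370 in the exact test). The ratios reuse the counts tested above, and the share of such pairs among all genes was not computed. Single genes often separated, as 48.7% of all tested genes were called and 34.5% did not overlap between genotypes. The counts of pairs are therefore a description and no separate support.

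Nrf1 rose relative to Tfam and Gabpa. The log2 ratio of Nrf1 to Tfam was -0.88 ± 0.45 in control and 0.78 ± 1.101 in Trpm7 cKO (SD, n = 5, difference 1.65, exact permutation p = 0.00794). The log2 ratio of Nrf1 to Gabpa went from -0.31 ± 0.22 to 0.77 ± 0.85 (SD, n = 5, difference 1.08, exact permutation p = 0.00794). In both ratios every Trpm7 cKO library was above every control library. This restates, from the same counts, that Tfam and Gabpa were called lower and Nrf1 was not called. Between Gabpa and Tfam, both lower, the difference in the log2 ratio was 0.57 and did not pass (exact permutation p = 0.0556, adjusted p = 0.104).

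The ratio of the paralogous coactivators also differed between the genotypes. The log2 ratio of Ppargc1a to Ppargc1b was -1.95 ± 0.63 in control and -0.54 ± 0.55 in Trpm7 cKO (SD, n = 5, difference 1.41, exact permutation p = 0.0159, adjusted p = 0.0494), and the libraries overlapped. The ratio of Ppargc1b to Polg fell by 1.18 on the log2 scale, from 1.13 ± 0.32 to -0.05 ± 0.73 (SD, n = 5, exact permutation p = 0.00794), with no overlap. Ppargc1b against Nrf1 did not pass after adjustment (difference -0.86, exact permutation p = 0.0238, adjusted p = 0.0606). The 3 other pairs at the smallest p were Ppargc1a to Tfam (difference 2.202), Esrra to Tfam (2.37) and Ppargc1b to Esrra (-1.57). The low counts of Ppargc1a and Esrra limit the precision of their ratios.

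**Figure D3:**
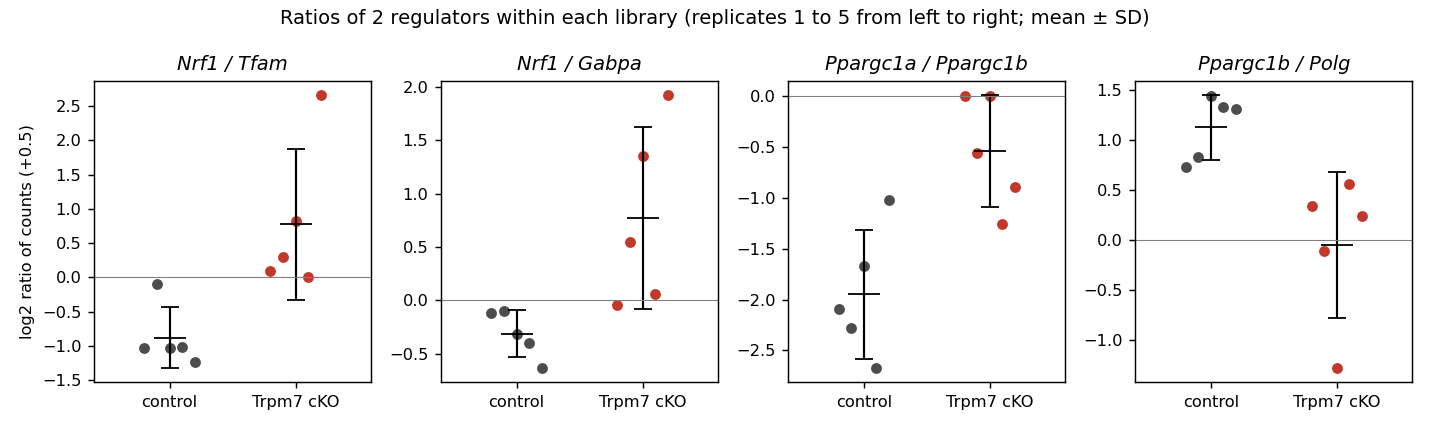
Log2 ratios of counts (y axis) between pairs of regulators within each library, one point per library, for control and Trpm7 cKO, with replicates 1 to 5 from left to right and the mean and SD as black bars, for 4 of the pairs described. For Nrf1 over Tfam and Nrf1 over Gabpa all 5 Trpm7 cKO points lie above all 5 control points.

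The wider pathway was read from 3 lists of 57 partner genes, of which 56 were in the table and 35 were tested. Of these 35, 9 were lower, 5 were higher and 21 were not called, beside 24.1% lower and 24.6% higher among all tested genes, with a median log2FC of -0.13 beside -0.01. Past both thresholds were 4 lower and 2 higher genes, beside 3.53% and 8.49% of all tested genes. Of these, Ppard and Lig3 were below the filter's level in every library of the genotype where they were low. Calls in both directions occurred in the lists, which name the proteins the regulators work with.

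Partners of nuclear control, the cofactors, kinases and receptors that act with the coactivators, had 16 tested genes of 22, with 3 lower, 3 higher and 10 not called (median log2FC -0.01, range -1.57 to 2.29). Ppard, a nuclear receptor of fatty acid oxidation, rose from 7.03 ± 2.82 to 39.9 ± 21.9 CPM (SD, n = 5, log2FC 2.29, SE 0.36, adjusted p = 3.11e-05). Lpin1, which encodes a phosphatidate phosphatase that can also act as a coactivator with the Ppargc1a product, rose from 9.95 ± 2.96 to 41.9 ± 16.9 CPM (log2FC 2.02, adjusted p = 4.73e-05). Ppard was below the filter's level of 13.4 CPM in every control library (4 to 9 counts, at most 9.65 CPM). It was tested only because it was high in Trpm7 cKO, so its higher call is no separate support. Lpin1, with 7 to 13 counts in control, was near or below that level there, so the same limit applies. Hcfc1, a chromatin scaffold that binds the Ppargc1 coactivators and GABP, fell from 348 ± 80.3 to 118 ± 29.5 CPM (log2FC -1.57, SE 0.19, adjusted p = 1.51e-06). Zfp746, a repressor of Ppargc1a, was also lower (log2FC -1.09, adjusted p = 0.00537). The other 2 calls, outside the naming rule and chosen after their values were seen, were Kat2a, an acetyltransferase that inhibits the Ppargc1a product (97.6 ± 15.3 to 48.8 ± 11.4 CPM, log2FC -0.997, adjusted p = 0.000242), and Creb1, an activator of Ppargc1a (54.7 ± 6.64 to 94.1 ± 19.7 CPM, log2FC 0.72, adjusted p = 0.00214). The call on Creb1 was lost when libraries were scaled on satellite cell markers, taken without Myod1 and Myog (log2FC 0.30, adjusted p = 0.285). That scaling moved the median log2FC of all tested genes to -0.43, so the loss is not particular to Creb1. The untested genes of this list included Ppara (3 counts in all in each genotype), Esrrg (6 in each), and Esrrb, with 5 counts in control and 0 in Trpm7 cKO, which allows up to 3 counts. Prkaa2, named after its values were seen, was also untested, with 4 to 9 counts in control and 1 to 24 in Trpm7 cKO. Its libraries overlapped, and it was called higher in the fit without the filter, scaled as in the filtered table (log2FC 2.14, adjusted p = 2.24e-07).

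Partners of mtDNA transcription and RNA handling work beside Tfam, Tfb2m and Polrmt. Of 11 tested genes of 17, 4 were lower, 0 were higher and 7 were not called, beside 24.1% lower and 24.6% higher among all tested genes (median log2FC -0.35, range -2.32 to 0.53). Tefm, the elongation factor of POLRMT, had 28 to 79 counts in control and 1 to 8 in Trpm7 cKO and fell from 58.3 ± 19.2 to 10.8 ± 4.23 CPM (SD, n = 5, log2FC -2.32, SE 0.32, adjusted p = 7.85e-06), which was a larger fall than that of any regulator. Lrpprc, which stabilises mitochondrial mRNAs, fell from 361 ± 51.4 to 115 ± 29.0 CPM (log2FC -1.62, SE 0.17, adjusted p = 3.48e-07). Mrpl12, a mitochondrial ribosomal protein, fell from 168 ± 31.5 to 89.6 ± 30.1 CPM (log2FC -0.92, adjusted p = 0.000930). The fourth was Pnpt1, which encodes an RNA-degrading enzyme (log2FC -0.60, adjusted p = 0.0135).

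Partners of mtDNA replication, the list closest to Polg, were split. Only 8 of 18 were tested, with 2 lower, 2 higher and 4 not called (median log2FC 0.25, range -1.96 to 0.71). Lig3, the DNA ligase that mitochondria use, fell from 24.2 ± 3.64 to 6.59 ± 3.88 CPM (SD, n = 5, log2FC -1.96, SE 0.36, adjusted p = 0.000166). In every Trpm7 cKO library it was below the filter's level of 13.4 CPM (1 to 5 counts, at most 11.04 CPM). It was tested only because it was high in control, so its lower call is no separate support. Ssbp1, the single-strand binding protein of mtDNA, fell from 99.6 ± 15.5 to 63.4 ± 19.0 CPM (log2FC -0.57, adjusted p = 0.0176). Mpv17, an inner membrane protein needed to keep mtDNA, rose from 14.9 ± 3.74 to 23.8 ± 4.19 CPM (log2FC 0.71, adjusted p = 0.0353), and Dguok, a nucleotide salvage kinase of mitochondria, rose as well (log2FC 0.62, adjusted p = 0.0465). Both rises were lost when libraries were scaled on satellite cell markers (adjusted p = 0.470 for Mpv17 and 0.610 for Dguok), which moved the median log2FC of all tested genes to -0.43. Ssbp1 missed the threshold with library totals alone (adjusted p = 0.0656). The accessory subunit gene Polg2 (5 to 10 counts in control, 3 to 8 in Trpm7 cKO) and the helicase gene Twnk (6 to 11 and 0 to 6) were below the filter.

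Transcripts that lie downstream of these regulators were also counted, with 24.1% lower and 24.6% higher among all tested genes as the background. Of 11 tested mitochondrial genome transcripts, 6 were lower, 1 was higher and 4 were not called, both ribosomal RNAs among them (median log2FC -1.02). The summed level of the 15 transcripts overlapped between the genotypes, at 118554 to 176700 CPM in control and 84897 to 120444 CPM in Trpm7 cKO. Ribosomal RNA mt-Rnr2 made up the largest part, with a mean of 82128 of 162066 CPM in control and 57838 of 96199 CPM in Trpm7 cKO. The sum therefore does not describe the mRNAs alone. Of the called transcripts, mt-Nd5, a complex I subunit gene, fell from 7686 ± 2316 to 2058 ± 767 CPM (SD, n = 5, log2FC -1.89, adjusted p = 1.02e-05), and mt-Nd1 (log2FC -1.54) and mt-Nd6 (log2FC -1.52) were also past both thresholds. The higher one, mt-Co2 (log2FC 0.79), had only 30 to 81 counts in control and 24 to 39 in Trpm7 cKO, and its libraries overlapped. Counts were very uneven among these transcripts. Over all control libraries mt-Nd1 had 86942 counts, mt-Co2 217, mt-Atp6 136, mt-Co3 25 and mt-Atp8 0. The reason was not tested, and the scarce transcripts, mt-Co2 among them, may be poorly measured. As the strand setting is not given, reads of mitochondrial genes on opposite strands, such as mt-Nd5 and mt-Nd6, may not be fully separated. Of 10 nuclear genes for mitochondrial proteins, all tested, 8 were lower and 2 were not called (median log2FC -0.62). The largest fall of these was that of Cs, citrate synthase, from 568 ± 72.1 to 223 ± 56.3 CPM (SD, n = 5, log2FC -1.32, adjusted p = 2.50e-06), followed by Ndufs1 of complex I (log2FC -1.16), and the smallest falls called were those of Cox5b of complex IV (log2FC -0.49) and Tomm20 of the import machinery (log2FC -0.58).

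**Figure D4:**
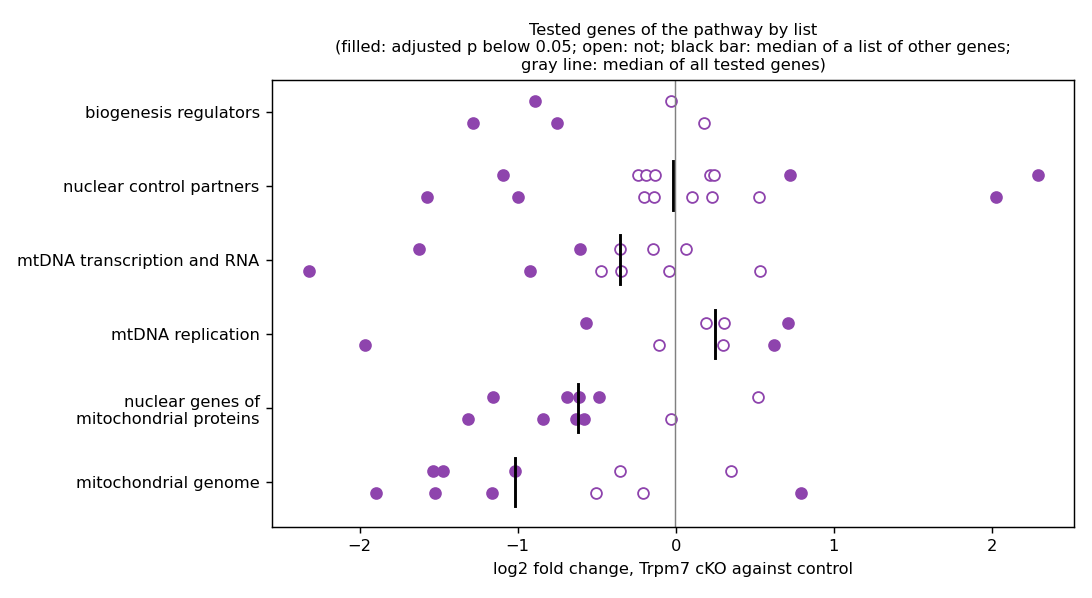
Log2FC (x axis, Trpm7 cKO minus control) of the tested genes in each list (rows), one point per gene, with called genes filled, the median of each list of other genes as a black bar, the median of all tested genes as a gray line, and the regulators in the top row. The transcription and RNA list has 4 called points below 0 and none above, and the nuclear control and replication lists have called points on both sides.

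Markers of other cell types differed between the genotypes beside these results. All 17 tested leukocyte markers of 20 were higher in Trpm7 cKO libraries, the summed level of the 20 genes was 384 to 653 CPM in control and 1448 to 6321 CPM in Trpm7 cKO, and none of the 20 was at 0 throughout a genotype. Summed endothelial markers (8 genes) were 4.29 to 63.7 CPM in control and 103 to 657 CPM in Trpm7 cKO, with 3 of 3 tested genes higher, and summed fibroadipogenic markers (8 genes) 487 to 714 and 1196 to 1959 CPM, with 4 of 4 tested genes higher and Pi16 at 0 in all controls. Satellite cell markers (19 genes) summed to 4077 to 4687 CPM in control and 3168 to 5451 CPM in Trpm7 cKO, an overlap, so the labelled cell type's markers were present in all libraries. Of 18 tested ones, 5 were lower, among them Myod1 and Myog, and 9 were higher, among them Pax7 (log2FC 1.19) and Chodl (log2FC 3.49). Of the erythroid genes, the 3 that were tested, all for hemoglobin chains, were higher (log2FC 5.09 to 5.39) and summed to 1.99 to 167 CPM in control and 140.4 to 2992 CPM in Trpm7 cKO, with an overlap of control library 5. Several markers of other cell types were below the filter's level of 13.4 CPM in every control library, such as Cdh5 (at most 9.26 CPM) and Mrc1 (at most 8.58 CPM). They were tested only because they were high in Trpm7 cKO, so the counts of higher calls are no separate support. Tfam and Gabpa were lowest in Trpm7 cKO libraries 5 and 3. In Trpm7 cKO libraries 1 to 5 the leukocyte sums were 3651, 1448, 3643, 6321 and 6015 CPM, and the endothelial sums 103, 105, 208, 328 and 657 CPM. Endothelial sums were thus highest in library 5, leukocyte sums in library 4 and the sums of the tested erythroid genes in library 3. The part of these cell types in the values of the regulators was not tested. With all libraries thinned at random to the total of the smallest, 3 regulators could be tested, and Tfam (log2FC -1.20, adjusted p = 0.00815) and Gabpa (log2FC -0.98, adjusted p = 0.0185) were still called lower, while Nrf1 was at -0.40 (adjusted p = 0.292).

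Across other settings the lower calls differed in how firmly they held. Over the alternatives in which each was tested, the log2FC of Tfam lay between -1.75 and -1.003, with an adjusted p of at most 0.00815, and that of Ppargc1b between -1.30 and -0.78, with an adjusted p of at most 0.0145. Ppargc1b did not pass the filter in the thinned libraries, so its call was not checked at equal depth. Gabpa ranged from -1.22 to -0.46 and lost its call without Trpm7 cKO library 3. Nrf1 ranged from -0.48 to 0.07 and Polg from -0.24 to 0.33, and neither was called under any setting. Scaling on satellite cell markers moved the median log2FC of all genes to -0.43, and under it Tfam was at -1.75 and Nrf1 at -0.48, close to that median. Under that scaling 74.5% of called genes were lower, against 49.4% in the main table.

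**Figure D5:**
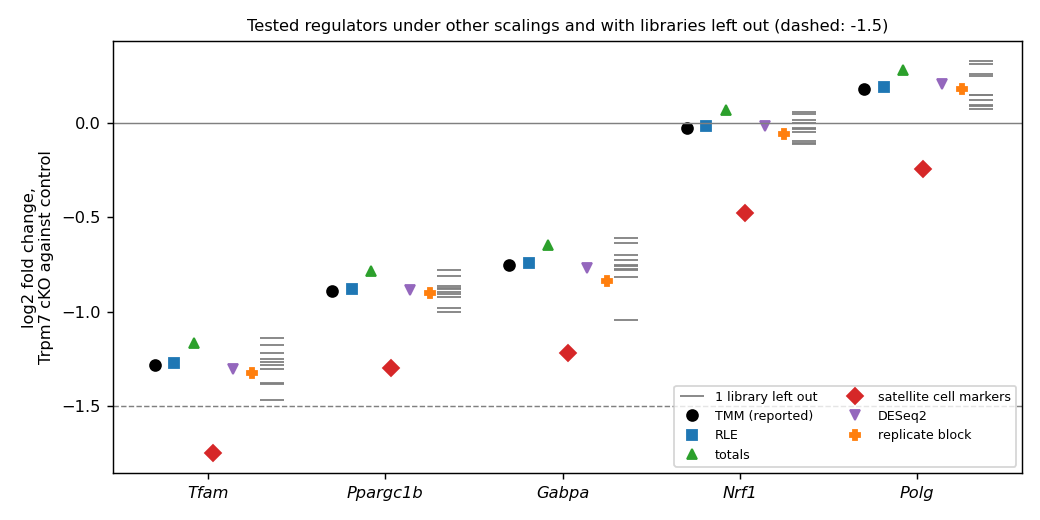
Log2FC (y axis, Trpm7 cKO minus control) of the 5 tested regulators (x axis) with the reported TMM scaling, 3 other scalings, DESeq2 and the replicate block as symbols, and each fit without 1 library as a gray dash; the dashed line marks -1.5. All marks of Tfam, Ppargc1b and Gabpa lie below 0, and those of Nrf1 and Polg lie on both sides of 0.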

How the data were processed

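Per the methods and the submitters' processing notes, the authors sorted YFP-positive MuSCs, made CEL-Seq2 libraries, and processed reads with UMI-tools 1.1.4, Trim Galore 0.6.10, HISAT2 2.2.1 (GRCm38) and featureCounts 2.0.6. The deposited values are raw UMI counts per gene. The annotation release and strand setting are not given in the sources used here. Groups were taken from the labels. From the counts, genes were filtered with filterByExpr, scaled by TMM and tested with edgeR 4.0.16 (R 4.3.3, robust quasi-likelihood F test). DESeq2 1.42.0 (the authors used 1.30.1), limma-voom 3.58.1, other scalings, no filter, thinning, a replicate block and leaving out libraries were alternatives. Only the main edgeR fit was tested on simulated data, with 200 changed genes, each changed by more than any tested member was. In the data 3774 genes were called, so the simulation does not cover a comparison in which as many genes change. Coordinates are from GENCODE on GRCm38. Members and lists were chosen with earlier results of these data known. All 10 members were named, and of each partner list genes past both thresholds, otherwise the 2 lowest and 2 highest called.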

Additional observations from a re-analysis of the deposited data

How the results depend on the processing

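The 5 tested regulators were recomputed under the alternatives whose filter they passed, and the other 5 only where they entered the fit. In the main analysis 3 regulators were called, and 2 to 4 when 1 library was left out, which also changes how many pass the filter (5 to 8), the fourth being Polrmt. With the satellite cell marker scaling 1 regulator, Tfam, was past both thresholds (main 0), and leaving out 1 library gave 0 to 0. Over all 5 lists of other genes, 29 were called, and 28 to 34 under other scalings and without the filter. Gabpa was called in the main analysis but not without Trpm7 cKO library 3, and Polrmt was called without filter and without Trpm7 cKO library 2 (log2FC -1.36, adjusted p = 0.0199). The cause was not tested. Equal replicate numbers did not pair the samples (correlations of deviations -0.12 to 0.18, only number 5 correlating best with itself); a replicate block left 3 regulators called and changed no call among the 5 tested. Low counts limit what can be said of Tfb1m, Esrra, Tfb2m, Ppargc1a and Polrmt.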
